A study of Mus musculus with 20 samples.

Results

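The genes examined were 8 of the 19887 genes counted in mouse cecum: the vitamin D receptor Vdr, its partner Rxra, the vitamin D hydroxylases Cyp24a1 and Cyp27b1, and the calcium transport genes Trpv6, S100g, Atp2b1, and Slc8a1. They were taken by name as a set of receptor, target, and transport genes, without a rule on their level or their change. The choice was made with earlier results of these data known, among them the study's report on Cyp24a1. Of the 8, 7 had enough counts to be tested and Cyp27b1 did not. The receptor binds the active form of vitamin D, pairs with a retinoid X receptor such as Rxra, and acts on DNA elements near its target genes. Cyp27b1 makes the active hormone and Cyp24a1, a target of the receptor, breaks it down. In an absorptive epithelial cell calcium enters through the apical channel Trpv6, is carried by the small binding protein S100g (calbindin-D9k), and leaves at the basal side through the pump Atp2b1 or the sodium-calcium exchanger Slc8a1.

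C57BL/6 mice that were 3 weeks old at the start ate the Total Western Diet (TWD), a rodent diet built on American nutrient intakes, for 6 weeks. They then ate the TWD with 0, 2, 5, or 10% raw potato starch (RPS), a resistant starch of type RS2, for 3 weeks, and counts of cecum RNA from 5 mice per diet, numbered here 1 to 5 within each diet, were analyzed. Figure legends of the study give larger groups for its RNA-seq, and further mice were not analyzed here. Total counts were between 14967798 and 42687283 per mouse, so that 3 counts, taken as the floor, were 0.20 CPM (counts-per-million) in the smallest library and 0.0703 CPM in the largest. The RNA came from sections of whole cecum, so all levels are of mixed tissue. Each of the 9 epithelial and 4 colonocyte markers was detected, with summed levels of 10870 to 17130 CPM and 17380 to 31000 CPM. The 7 smooth muscle markers were all higher on average at 10% RPS (median log2 difference 0.69), summing to 4348 to 7238 CPM against 2620 to 6118 CPM at 0% RPS, and 1 of them, Actg2, passed the threshold. Of 9 epithelial markers 8 were lower on average (median -0.14), and of 8 leukocyte markers 7 were higher (median 1.19, summed levels of 361.4 to 728.9 CPM against 103 to 647 CPM), with 0 past the threshold in either list. Of 6 fibroblast markers 5 were higher (median 0.34, summed levels of 502.3 to 787.8 CPM against 402.6 to 559.4 CPM), and all 7 enteric neuron and glia markers were lower (median -0.34, 32.9 to 56.6 CPM against 41.1 to 82.3 CPM), again with 0 past the threshold in either list. The 4 colonocyte markers differed in direction, summing to 17380 to 29200 CPM against 26910 to 30590 CPM: Slc26a3, a chloride and bicarbonate exchanger, was higher and passed (log2 fold change 0.61, edgeR adjusted p 0.0487), while the log2 fold changes of Car4, Car1, and Aqp8 were 0.45, -0.43, and -0.58 (edgeR adjusted p 0.114, 0.0956, and 0.114).

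Per length of exon, the receptor was the most abundant of the 8 genes. The order depends on that length, taken over all annotated exons, which was 5742 bases for Vdr and 16593 for Atp2b1. In CPM the means of Vdr and Atp2b1 were 593 and 595. Over 20 mice Vdr was at 103 ± 13.1 CPM per kb (SD, n = 20), Trpv6 at 74.0 ± 33.8, Atp2b1 at 35.8 ± 4.12, Rxra at 33.3 ± 2.59, S100g at 22.7 ± 11.1, Slc8a1 at 7.29 ± 0.901, Cyp24a1 at 3.37 ± 5.13, and Cyp27b1 at 0.0608 ± 0.0304. Neighbors in this order such as Atp2b1 and Rxra lay within their spread, and the range of Trpv6 reached that of Vdr. The genes fell apart in how much mice on the same diet differed. The standard deviation of log2 CPM within diets was 2.16 for Cyp24a1, 0.82 for S100g, and 0.72 for Trpv6, and it was 0.12 to 0.18 for Vdr, Rxra, Atp2b1, and Slc8a1, beside a median of 0.24 over all 15348 genes tested. Cyp24a1 stood 18th of the 15348 genes by this spread.

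**Figure D1:**
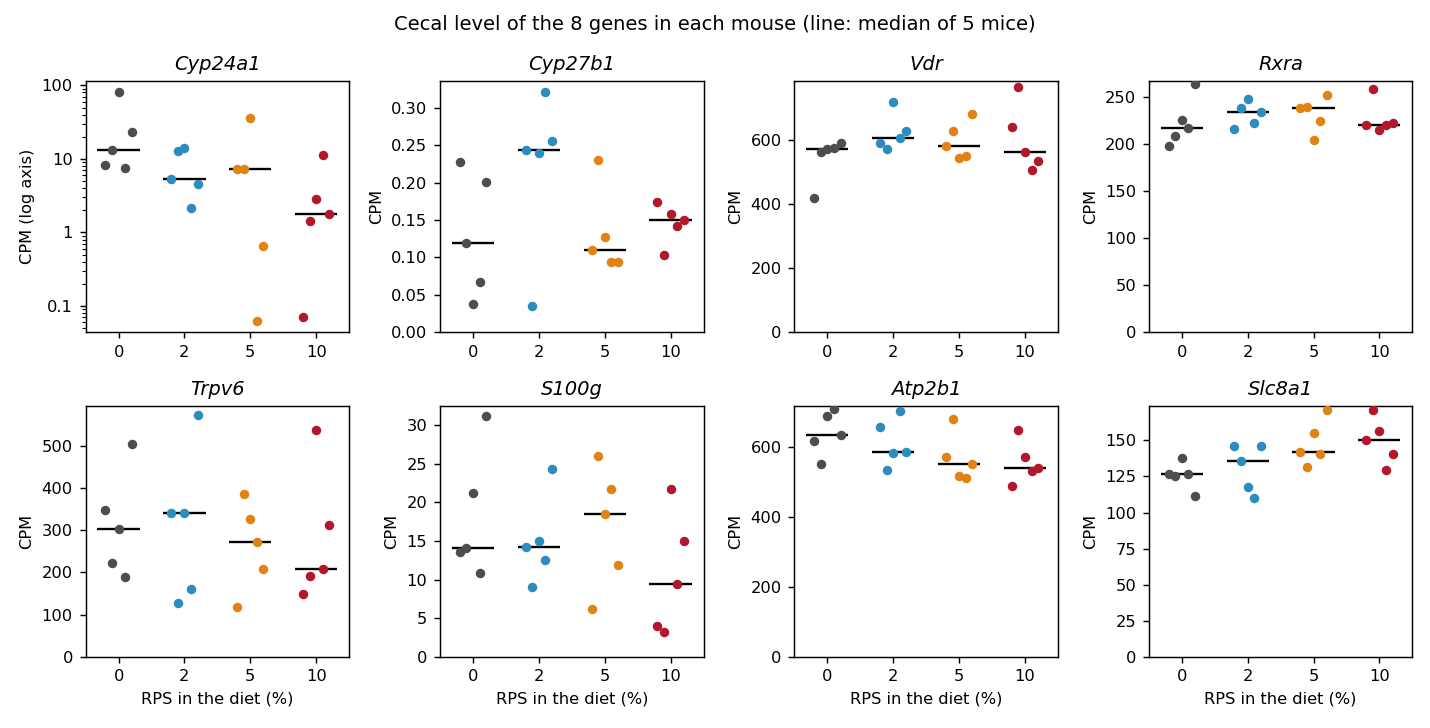
CPM, scaled by TMM, of each of the 8 genes against the percentage of RPS, 1 point per mouse and a line at the median of 5 mice; the axis of Cyp24a1 is logarithmic and the others start at 0. Cyp24a1 ran from 0.0629 to 80.1 CPM and Trpv6 and S100g varied several-fold within every diet, while Vdr, Rxra, Atp2b1, and Slc8a1 stayed within a narrow band.

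At 10, 5, and 2% RPS against 0% RPS, 0 of the 7 tested genes passed the threshold of an edgeR adjusted p of at most 0.05 and a fold change of at least 1.5, and 0 of 7 had a trend over the dose at an adjusted p of at most 0.05. Among all 15348 genes 1.04% passed at 10% RPS, 0.195% at 5% RPS, 0% at 2% RPS, and 1.11% for the trend. DESeq2's Wald test likewise called 0 of the 7 in each of these comparisons, beside 2.47%, 1.41%, and 0.027% of all genes at 10, 5, and 2% RPS and 4.87% for the trend. At an unadjusted p under 0.05 edgeR gave 2 of 7 at 10% RPS (Cyp24a1 lower and Slc8a1 higher) beside 19.5% of all genes, 1 of 7 at 5% RPS (Slc8a1) beside 13.3%, 0 of 7 at 2% RPS beside 5.77%, and 3 of 7 for the trend (Cyp24a1 and Atp2b1 downward and Slc8a1 upward) beside 18.8%.

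**Figure D2:**
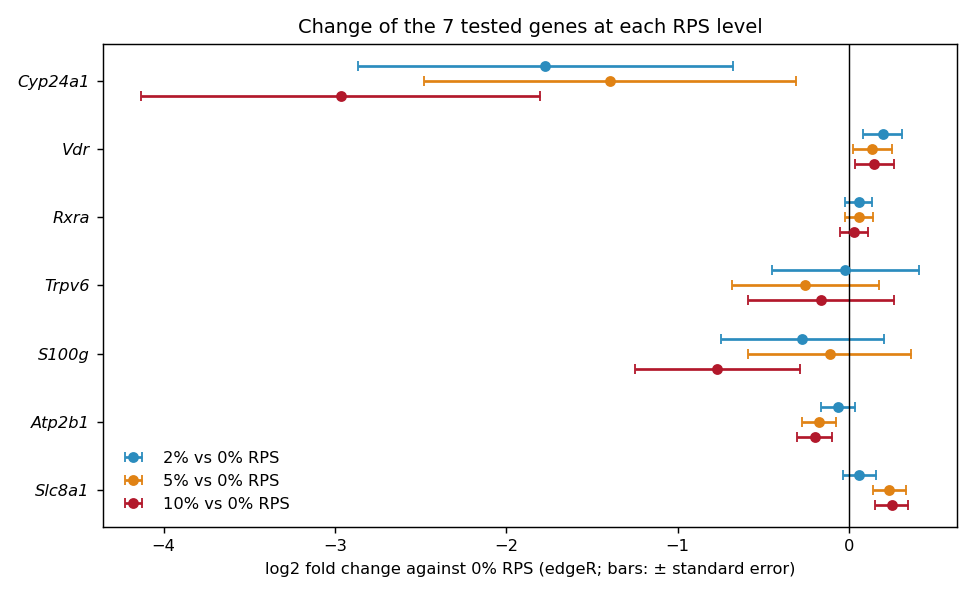
log2 fold change against 0% RPS, with its standard error from edgeR, for the 7 tested genes at 2, 5, and 10% RPS. Cyp24a1 had the largest differences and the widest errors, the estimates of Vdr and Rxra lay between 0.03 and 0.20, and those of Slc8a1 at 5 and 10% RPS were 0.24 and 0.25.

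Cyp24a1, the vitamin D 24-hydroxylase, lies on chr2:170324628-170339065 (GRCm39, minus strand). On 0% RPS the 5 mice had 8.27, 13.2, 80.1, 7.42, and 23.4 CPM. On 2% RPS they had 5.40, 12.7, 13.9, 2.12, and 4.54 CPM, and on 5% RPS 7.26, 7.399, 36.1, 0.0629, and 0.66 CPM. On 10% RPS they had 0.0697, 1.45, 2.88, 11.3, and 1.76 CPM. The level with 10% RPS lay below the lowest control in 4 of 5 mice, and the groups overlapped through mouse 4. One mouse on 5% RPS and 1 on 10% RPS had 2 counts each, below the floor of 3 counts, while mouse 3 on 0% RPS had 2136 counts. Pfdn4 overlaps the gene on the other strand at its start and had 225 to 691 counts per mouse, with a rho to Cyp24a1 of 0.24.

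The mean of Cyp24a1 was 26.5 ± 30.7 CPM (SD, n = 5) at 0% RPS, 7.73 ± 5.24 at 2% RPS, 10.3 ± 14.8 at 5% RPS, and 3.48 ± 4.46 at 10% RPS. The fitted log2 fold change was -2.97 (standard error 1.16, 95% interval -5.25 to -0.68) at 10% RPS, or 7.81-fold lower, with an edgeR adjusted p of 0.178. It was -1.39 (standard error 1.09, edgeR adjusted p 0.648) at 5% RPS and -1.77 (standard error 1.09, edgeR adjusted p 0.903) at 2% RPS. As a single gene, the mean difference in log2 CPM at 10% RPS was -3.38 in a 2-sided exact permutation test (p = 0.0238, with a smallest possible p of 0.00794). The study had already named Cyp24a1 as lower in this experiment, so single-gene p for it are not independent support. The slope over dose was -0.26 log2 units per percent RPS (standard error 0.11, edgeR adjusted p 0.192). One control mouse carried much of the size: with mouse 3 on 0% RPS removed the log2 fold change was -1.94 (edgeR adjusted p 0.387), and with mouse 4 on 10% RPS removed it was -4.09 (edgeR adjusted p 0.0848). Over all settings that left out 1 mouse the adjusted p was 0.0848 to 0.387. Set against the mean of the epithelial markers in each mouse, the difference in Cyp24a1 at 10% RPS was -3.24 log2 units (exact permutation p = 0.0238). Over 20 mice, pooled over diets, the rho of Cyp24a1 was -0.50 with the smooth muscle list, -0.54 with the fibroblast list, and 0.51 with the enteric neuron and glia list (permutation p 0.0283, 0.0159, and 0.0234, and 0.146, 0.128, and 0.141 when adjusted over 36 relations). Pearson's r was -0.56, -0.51, and 0.54 (permutation p 0.0102, 0.0222, and 0.0149, and 0.0892, 0.114, and 0.0892 when adjusted), and -0.36, -0.51, and 0.52 without the 2 farthest mice. With the diet means subtracted and mice permuted within their diet, rho was -0.34, -0.36, and 0.45 (permutation p 0.228, 0.145, and 0.0654, and 0.476, 0.471, and 0.471 when adjusted). Their part in the level of Cyp24a1 was not tested. In mixed tissue fewer cells of a type and less RNA per cell cannot be told apart.

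Cyp27b1, the 1-alpha-hydroxylase that makes the hormone (chr10:126884119-126888875, plus strand), was close to the floor in every library. It had 1 to 11 counts per mouse and 95 counts in all, between 0.0348 and 0.322 CPM. The 4 diets overlapped, at 0.0375 to 0.228 CPM with 0% RPS and 0.103 to 0.174 CPM with 10% RPS. At this depth a difference between diets was not detectable, and no fold change is given.

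Vdr (chr15:97752306-97808511, minus strand) was high in every mouse. It was at 420, 564, 573, 575, and 592 CPM on 0% RPS and at 643, 769, 564, 506, and 537 CPM on 10% RPS. On 2% RPS its range was 574 to 720 CPM and on 5% RPS 544 to 683 CPM, so all diets overlapped. The log2 fold change was 0.15 at 10% RPS (standard error 0.11, 95% interval -0.077 to 0.372, edgeR adjusted p 0.501), 0.14 at 5% RPS (edgeR adjusted p 0.680), and 0.20 at 2% RPS (edgeR adjusted p 0.892). All 5 mice on 2% RPS lay above the control median, and as a single gene the exact permutation p was 0.0318 at 2% RPS, 0.278 at 5% RPS, and 0.389 at 10% RPS.

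Rxra, the retinoid X receptor alpha (chr2:27566452-27653330, plus strand), was the steadiest of the genes. It lay between 198 and 264 CPM in all 20 mice, with 198, 209, 226, 217, and 264 CPM on 0% RPS and 221, 259, 215, 220, and 222 CPM on 10% RPS. Its log2 fold changes of 0.03, 0.06, and 0.06 at 10, 5, and 2% RPS had edgeR adjusted p of 0.883, 0.843, and 0.974. The 95% interval at 10% RPS was -0.13 to 0.188. Relative to the epithelial markers, Rxra was 0.18 log2 units higher at 10% RPS (exact permutation p = 0.0159), and relative to the colonocyte markers, whose members differed in both directions, it was 0.04 (exact permutation p = 0.754). Of the 9 epithelial markers 8 were lower at 10% RPS (median -0.14), so a gene of unchanged level comes out higher relative to them.

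Trpv6, the apical calcium channel, varied 4.81-fold between mice. On 0% RPS it was at 349, 222, 304, 188, and 505 CPM. On 2% RPS it was at 340, 129, 342, 162, and 573 CPM, on 5% RPS at 119, 387, 327, 273, and 209 CPM, and on 10% RPS at 149, 191, 538, 209, and 313 CPM. Each diet held both low and high mice and the diets overlapped throughout. Its log2 fold change was -0.16 at 10% RPS (standard error 0.43, 95% interval -1.0 to 0.675, edgeR adjusted p 0.875), and its sign turned to 0.09 without mouse 5 on 0% RPS.

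S100g, the cytosolic calcium carrier, varied 9.73-fold between mice. On 0% RPS it was at 13.6, 14.1, 21.2, 10.8, and 31.1 CPM. On 2% RPS it was at 14.2, 9.08, 15.04, 12.47, and 24.4 CPM, on 5% RPS at 6.16, 26.0, 18.5, 21.7, and 11.9 CPM, and on 10% RPS at 4.04, 3.20, 21.8, 9.42, and 15.01 CPM. Two-sided exact permutation of 10% against 0% RPS gave p = 0.143, and 3 of the 5 mice on 10% RPS lay below every control. The log2 fold change at 10% RPS was -0.77 (standard error 0.48, 95% interval -1.71 to 0.175, edgeR adjusted p 0.391).

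The mice with high Trpv6 were the mice with high S100g. On 2% RPS, mouse 5 had the highest level of both and mouse 2 the lowest of both, and on 10% RPS mouse 3 had the highest of both. Across 20 mice Spearman's rho was 0.86 (permutation p = 1e-05, the smallest that 100000 permutations can give) and Pearson's r of log2 CPM was 0.78 (permutation p = 4e-05). With the diet means subtracted rho was 0.83 and r was 0.85, and within the diets of 0, 2, 5, and 10% RPS r was 0.85, 0.94, 0.97, and 0.89 (n = 5 each, with no test). Without the 2 mice farthest from the median of Trpv6, r was 0.77. Among 15347 genes, S100g ranked 2nd by its rho with Trpv6 over all mice. The permutation p adjusted over all genes was 0.154, the value that 1 gene alone at the smallest p would have, so this test could not call a single gene.

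To test all genes without that limit, the counts of every gene were fitted in edgeR on log2 CPM of Trpv6 with diet in the model, a step added after the correlation with S100g had been seen. Of 15347 genes, 3 (0.0195%) passed an adjusted p of 0.05, all with a positive slope. These were S100g (slope 0.96 log2 units per log2 unit of Trpv6, standard error 0.14, edgeR adjusted p 0.0110), Kel (0.97, standard error 0.13, edgeR adjusted p 0.00430), and Llcfc1 (1.06, standard error 0.16, edgeR adjusted p 0.0149). S100g is on the X chromosome, at chrX:161744988-161747617 (GRCm39), whereas Kel and Llcfc1 are neighbors of Trpv6 on chromosome 6. Trpv6 spans chr6:41597558-41613343 (minus strand), Trpv5, the other channel of its kind, chr6:41629107-41657703, Llcfc1 chr6:41661317-41667266, and Kel, a blood group glycoprotein, chr6:41663264-41681273. The start of Kel lies 67.9 kb from that of Trpv6.

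The neighbors were far less abundant than the channel. Kel had 11 to 110 counts per mouse (0.518 to 3.48 CPM), Llcfc1 8 to 60 counts (0.247 to 1.80 CPM), and Trpv5 3 to 94 counts (0.104 to 2.97 CPM), beside 3701 to 24620 counts of Trpv6. Their rho with Trpv6 over 20 mice was 0.87 for Kel, 0.84 for Llcfc1, and 0.70 for Trpv5, and Trpv5 had a slope of 1.06 (standard error 0.21, edgeR adjusted p 0.260). Kel and Llcfc1 overlap on opposite strands, Trpv5 is a close paralog of Trpv6, and the use of strand in counting is not given in the sources used here, so counts of these genes may include reads of one another. Ephb6, which overlaps the last 2707 bases of Trpv6 on the other strand, had 36 to 127 counts and a rho of 0.55. Ctps2, which overlaps S100g on the other strand, had 329 to 1055 counts and a rho with S100g of 0.02.

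The 3 genes did not stay past the threshold in every setting. With mouse 3 on 10% RPS removed, the mouse with the most Kel, 0 genes passed (edgeR adjusted p of S100g 0.118), and with mouse 1 on 5% RPS removed only Kel did. With mouse 2 on 2% RPS removed Llcfc1 did not pass (edgeR adjusted p 0.0536), and without diet in the model S100g did not (edgeR adjusted p 0.067). With the smooth muscle markers or the enteric neuron and glia markers as a covariate only Kel passed as well, and the slope of S100g was then 0.97 (edgeR adjusted p 0.0815) and 0.82 (edgeR adjusted p 0.0794). The slope of S100g was 0.97 with the epithelial markers as a covariate (edgeR adjusted p 0.0219). Of the 9 marker lists, the enteric neuron and glia list had the highest correlation with S100g over 20 mice pooled over diets, with r 0.66 (permutation p 0.00175) and rho 0.53 (permutation p 0.0166, adjusted over 36 relations 0.128), and its r without the 2 farthest mice was 0.52. With the diet means subtracted r was 0.63 (permutation p 0.00554, adjusted 0.199) and rho was 0.65 (permutation p 0.00633, adjusted 0.228).

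**Figure D3:**
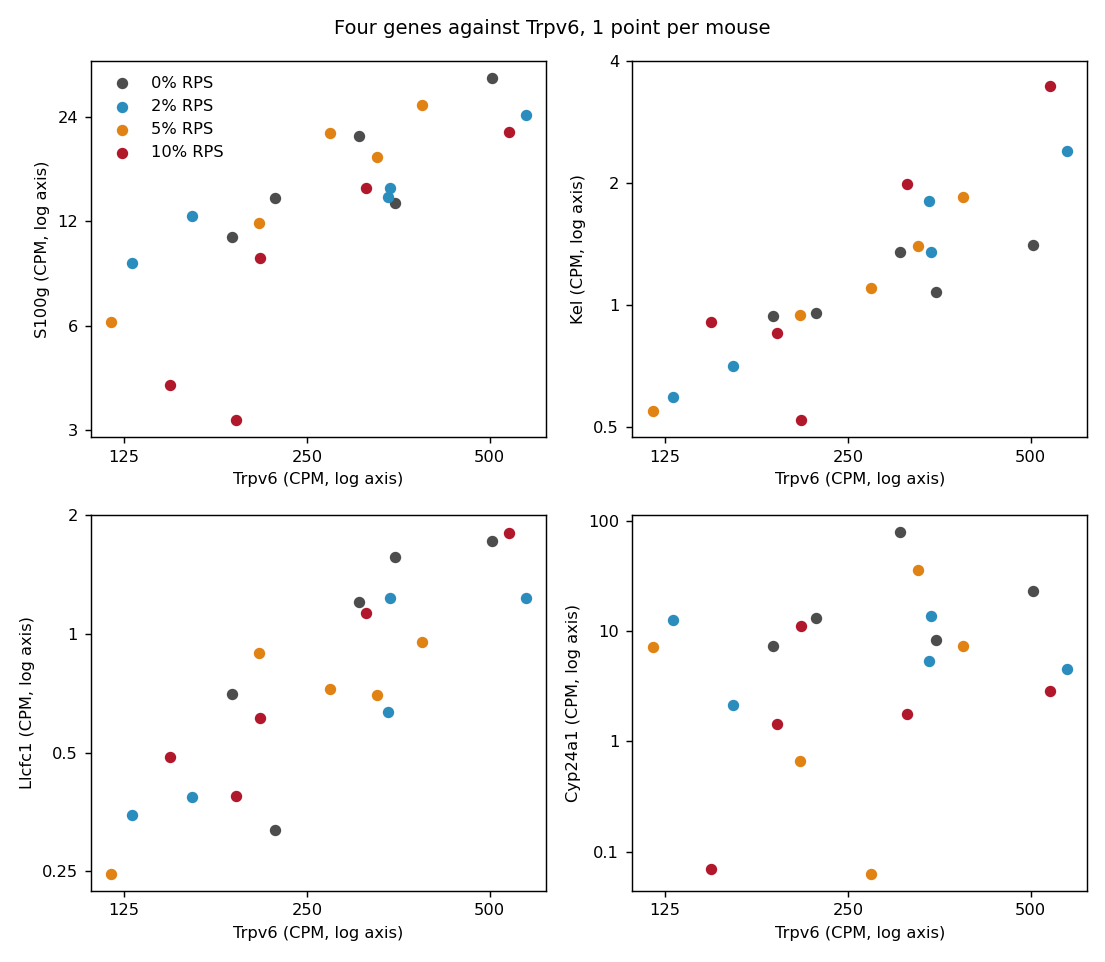
CPM of S100g, Kel, Llcfc1, and Cyp24a1 against CPM of Trpv6, both on log axes, 1 point per mouse colored by diet. S100g, Kel, and Llcfc1 climbed with Trpv6 in every diet (rho 0.86, 0.87, and 0.84 over 20 mice), and Cyp24a1 had a rho of 0.23.

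The bases before the start of Trpv6 and S100g are shown because the levels of these genes moved together. RefSeq promoters on GRCm38.p6 were given for 7 of the 8 genes; Cyp24a1 had no entry. The 250 bases upstream of each start were searched on both strands for the 6-base receptor motif AGGTCA, and for a direct repeat of such motifs with 3 bases between them, in which AGTTCA and GGGTCA and also GGTTCA were allowed. Trpv6 (chr6:41636406-41636655, minus strand) and S100g (chrX:162964600-162964849, minus strand) each held 2 single motifs, in capitals here, and 0 direct repeats.
Trpv6: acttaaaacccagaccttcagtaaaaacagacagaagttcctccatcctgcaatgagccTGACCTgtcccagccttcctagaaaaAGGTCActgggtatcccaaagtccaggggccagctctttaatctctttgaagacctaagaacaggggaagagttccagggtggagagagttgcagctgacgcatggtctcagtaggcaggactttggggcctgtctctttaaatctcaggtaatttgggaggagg
S100g: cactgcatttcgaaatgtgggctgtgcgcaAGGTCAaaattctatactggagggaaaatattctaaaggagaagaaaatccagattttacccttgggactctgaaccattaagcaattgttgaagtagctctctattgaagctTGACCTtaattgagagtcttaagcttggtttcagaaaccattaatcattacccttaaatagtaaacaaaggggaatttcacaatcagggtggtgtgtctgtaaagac
In Trpv6 the matches began 191 and 165 bases before the start, and in S100g 220 and 107 bases before it. An AGGTCA match was present in 14.0% of the 32851 promoters of the table and a direct repeat in 0.0396%. One of the promoters of Rxra also held 2 of the motifs, and the entries of Cyp27b1, Vdr, Atp2b1, and Slc8a1 held 0. A match of letters is a description and not a binding site.

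Atp2b1, the plasma membrane calcium pump (chr10:98750268-98862488, plus strand), was abundant in all mice and varied little. It was at 618, 553, 690, 708.4, and 634 CPM on 0% RPS and at 490, 650, 574, 532, and 541 CPM on 10% RPS. On 2% RPS it was at 535 to 704 CPM and on 5% RPS at 513 to 680 CPM. The groups overlapped, with 1 mouse on 10% RPS above the control median. The log2 fold change was -0.20 at 10% RPS (standard error 0.10, 95% interval -0.397 to -0.004, edgeR adjusted p 0.276) and -0.18 at 5% RPS (edgeR adjusted p 0.477). That interval uses a normal approximation and leaves out 0, while the unadjusted edgeR p at 10% RPS was 0.0588. Over dose the slope was -0.02 per percent RPS (edgeR adjusted p 0.236). Relative to the epithelial markers the difference at 10% RPS was -0.06 (exact permutation p = 0.429) and relative to the colonocyte markers -0.20 (exact permutation p = 0.0317).

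Slc8a1, the sodium-calcium exchanger (chr17:81680534-82045891, minus strand), was the only one of the 7 with higher values at 5 and 10% RPS by the unadjusted test. It was at 127, 125.5, 138, 127, and 111 CPM on 0% RPS, at 146, 136, 117, 110, and 146 CPM on 2% RPS, and at 142, 131, 155, 141, and 171 CPM on 5% RPS. On 10% RPS it was at 150, 171, 157, 129, and 140 CPM. All 5 mice on 5% RPS and all 5 on 10% RPS lay above the control median, and both groups overlapped the controls through control mouse 3. The log2 fold change was 0.25 at 10% RPS (standard error 0.10, 95% interval 0.063 to 0.438, edgeR adjusted p 0.161) and 0.24 at 5% RPS (edgeR adjusted p 0.268), a fold of 1.19 and 1.18. The slope of 0.03 per percent RPS had an edgeR adjusted p of 0.126, and 0.0474 without mouse 4 on 10% RPS.

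The exchanger is also expressed in smooth muscle. Over 20 mice, pooled over diets, its rho was 0.65 with the smooth muscle list and 0.61 with the fibroblast list, and -0.53 with the epithelial list (permutation p 0.00289, 0.00564, and 0.0177, and 0.101, 0.101, and 0.128 when adjusted over 36 relations). Without the 2 mice farthest from its median, r with the smooth muscle list was 0.66 and r with the epithelial list was -0.19. With the diet means subtracted, rho was 0.37 with the smooth muscle list, 0.44 with the fibroblast list, and -0.35 with the epithelial list (permutation p 0.149, 0.0846, and 0.157, each 0.471 when adjusted). Relative to the epithelial markers Slc8a1 was 0.39 log2 units higher at 10% RPS (exact permutation p = 0.0238), and relative to the smooth muscle markers the difference was -0.52 (exact permutation p = 0.0714). Relative to the smooth muscle markers the other 6 tested genes were lower as well, with differences from -0.62 (Vdr) to -4.15 (Cyp24a1) log2 units. Each had an exact permutation p of at most 0.0318. These markers were themselves higher at 10% RPS (median 0.69), so a gene of unchanged level comes out lower by this measure. Without markers the log2 fold changes of Vdr, Rxra, and Trpv6 were 0.15, 0.03, and -0.16. The part of the muscle in the level of Slc8a1 was not tested.

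**Figure D4:**
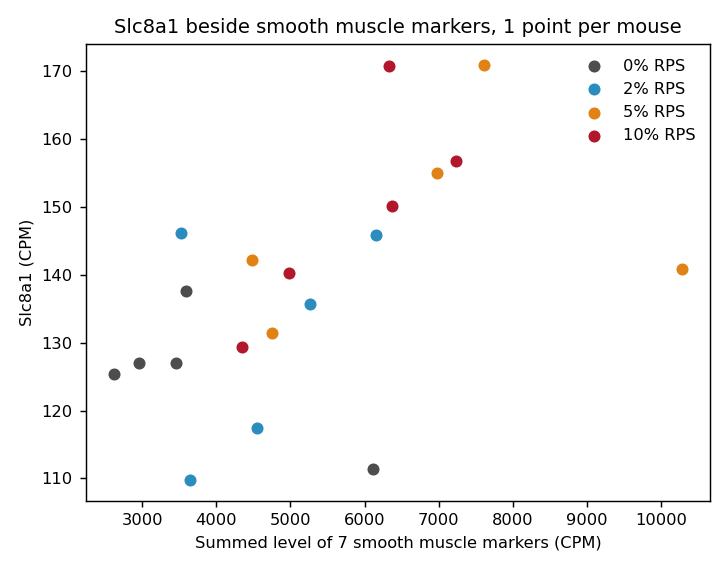
CPM of Slc8a1 against the summed CPM of 7 smooth muscle markers, 1 point per mouse colored by diet. Mice with more muscle marker RNA had more Slc8a1 (rho 0.65 over 20 mice with the mean log2 level of the list), apart from a control at 111 CPM and a mouse on 5% RPS with the highest marker sum.

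Spearman's rho with Cyp24a1 over 20 mice was 0.26 for S100g, 0.23 for Trpv6, 0.20 for Atp2b1, -0.10 for Rxra, and -0.28 for Vdr, with permutation p of 0.262, 0.318, 0.392, 0.667, and 0.227. Pearson's r was 0.36, 0.24, 0.37, -0.06, and -0.24 in the same order. For Slc8a1 rho was -0.49 (permutation p = 0.0279, adjusted over 15347 genes 0.393) and r was -0.38, but with the diet means subtracted rho was -0.13 (permutation p = 0.601). Without the 2 mice farthest from the median of Cyp24a1, r was 0.38 for S100g, 0.15 for Trpv6, 0.01 for Atp2b1, -0.21 for Rxra, -0.33 for Vdr, and -0.40 for Slc8a1. Cyp24a1 and Trpv6 had a higher rho without the 2 mice farthest from the median of Trpv6, 0.36 over all mice and 0.54 with the diet means subtracted. Of these 6 genes, 0 passed an adjusted p of 0.05, beside 0% of all 15347 genes, of which 1727 had an unadjusted p under 0.05, in a test where the smallest adjusted p that a gene on its own could reach was 0.154. The edgeR slopes on Cyp24a1 with diet in the model also called 0 of 6 and 0% of all genes, with 676 at an unadjusted p under 0.05.

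The 10 genes with the highest rho to Cyp24a1 were Srd5a3 (0.83), Tsku (0.82), Hsd17b14 (0.81), Anks1b, Cd300lg, Cln6, Ttc4, Gata2, Id2, and Rpl5 (0.75), and the 5 with the lowest were Kcnj6 (-0.80), Muc4, P2rx5, Itgb3, and Itga10 (-0.78). Their permutation p adjusted over all genes were 0.132 to 0.18. With the diet means subtracted Tsku (0.80), Klrb1a (0.77), Gna12 (0.75), Terf2ip (0.75), and Kcnb2 (0.74) were highest, and Tsku was the only gene in both lists of highest values. These genes were named by their rank, and 0 of them passed an adjusted p of 0.05.

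Beyond the 8 genes, 6 lists of vitamin D and mineral transport genes held 79 genes, of which 75 were counted and 69 tested, the 7 tested genes above among them. At 10% RPS 5 of the 69 passed the threshold, 4 lower and 1 higher, beside 1.04% of all genes, and all 5 were in the list of 14 other vitamin D-responsive genes tested. DESeq2's Wald test called 6 of the 69, beside 2.47% of all genes. The same 5 passed for the trend over dose, and Abcb1a passed at 5% RPS. The groups at 10 and 0% RPS did not overlap for any of the 5, against 4.88% of all genes, a count that their choice by this same comparison largely fixes. The study named some genes of that list from its own RNA-seq, Cd274 from the distal colon and Alox5 from the cecum, so the list is not independent of these data.

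In the whole list of 14 tested genes, 6 were higher and 8 lower at 10% RPS, with a median log2 fold change of -0.075. Tmem37, Slc30a10, and Slc37a2 were among the higher ones, at 0.67, 0.32, and 0.23 (edgeR adjusted p 0.166, 0.579, and 0.486). The 4 listed genes that were lower past the threshold were a drug efflux pump, an intestinal phosphatase, and a pair of growth arrest genes. Abcb1a (P-glycoprotein) had 910 to 1201 CPM with 0% RPS against 451 to 710 CPM with 10% RPS, a log2 fold change of -0.78 (standard error 0.14, edgeR adjusted p 0.0111), and -0.65 at 5% RPS (edgeR adjusted p 0.0434). Alpi (intestinal alkaline phosphatase) was at 79.3 to 111 CPM and 48.2 to 76.8 CPM, a log2 fold change of -0.76 (standard error 0.17, edgeR adjusted p 0.0275). Cdkn1a (the cell cycle inhibitor p21) was at 486 to 687 CPM and 274 to 453 CPM, a change of -0.68 (standard error 0.13, edgeR adjusted p 0.0251). Gadd45a was at 56.6 to 99.4 CPM and 40.3 to 49.2 CPM, a change of -0.88 (standard error 0.19, edgeR adjusted p 0.0268). Cd274, which encodes the immune checkpoint ligand PD-L1, rose, with 4.05 to 6.45 CPM in controls against 7.30 to 10.0 CPM in mice given 10% RPS, a change of 0.87 (standard error 0.19, edgeR adjusted p 0.0289).

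**Figure D5:**
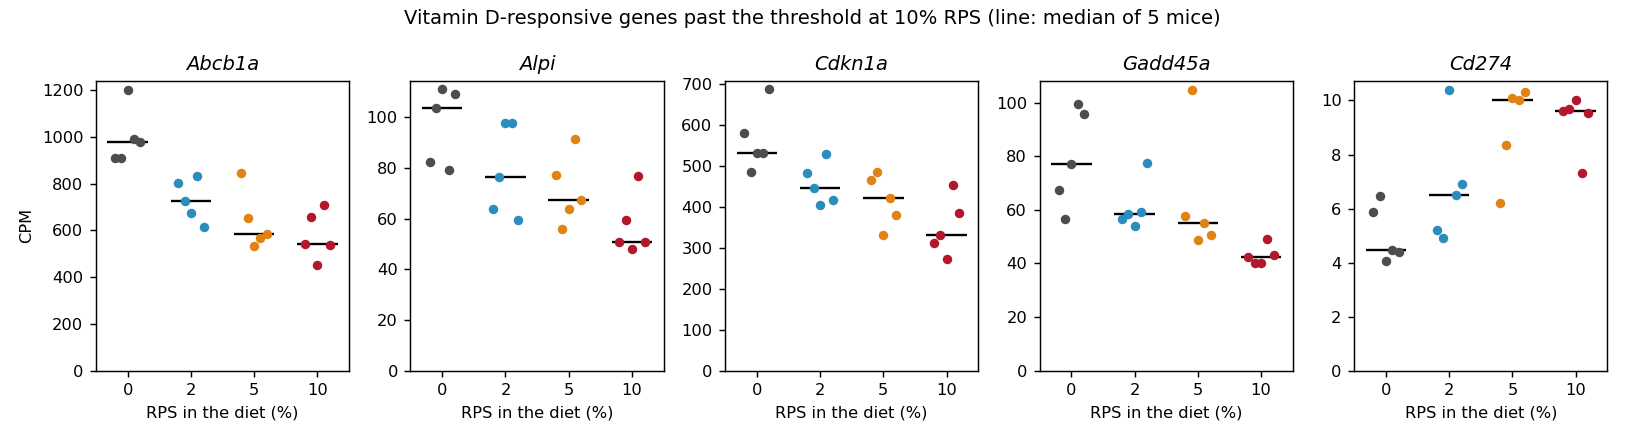
CPM of the 5 listed vitamin D-responsive genes that passed the threshold at 10% RPS, by percentage of RPS, 1 point per mouse and a line at the median of 5 mice, with axes that start at 0. In each gene the values at 10 and 0% RPS did not overlap, and for Abcb1a those at 2% RPS (613 to 831 CPM) and 5% RPS (532 to 845 CPM) were also below all controls.

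The count of 5 moved with the number of calls over all genes. With the epithelial markers as a covariate 1 of the 69 passed beside 0.0782% of all genes, and with the smooth muscle markers 0 of the 69 passed beside 0% of all genes. The edgeR log2 fold changes with the epithelial covariate were -0.70 for Abcb1a, -0.69 for Alpi, -0.55 for Cdkn1a, -0.74 for Gadd45a, and 0.81 for Cd274, with adjusted p of 0.0444 to 0.11. With the smooth muscle covariate they were -0.55, -0.76, -0.57, -0.82, and 0.71 in the same order, with edgeR adjusted p of 0.112 to 0.166. Leaving out control mouse 1, 2, 3, 4, or 5 gave 5, 6, 2, 3, and 1 of the listed genes and 98, 344, 34, 42, and 42 of all genes. Leaving out mouse 1, 2, 3, 4, or 5 on 10% RPS gave 1, 1, 1, 6, and 2 of the listed genes and 19, 34, 14, 302, and 80 of all genes. Over these 10 settings the log2 fold change was -0.86 to -0.70 for Abcb1a, -0.89 to -0.705 for Alpi, -0.79 to -0.59 for Cdkn1a, -0.98 to -0.78 for Gadd45a, and 0.80 to 0.98 for Cd274.

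In the other 5 lists 0 genes passed the threshold at 10% RPS, and their counts at an unadjusted p under 0.05 stand beside 19.5% of all genes. In vitamin D metabolism 2 of 7 tested genes had an unadjusted p under 0.05, Cyp24a1 and the endocytic receptor Lrp2, which had 0.168 to 0.775 CPM in controls against 0.75 to 1.93 CPM with 10% RPS and a log2 fold change of 1.24 (edgeR adjusted p 0.125). Among the receptor and its partners 0 of 14 did, and the largest differences were 0.64 for Rxrg (edgeR adjusted p 0.336) and -0.20 for Crebbp (edgeR adjusted p 0.285). In calcium transport and binding 5 of 22 did, 2 higher and 3 lower, and these were Slc8a1, the plasma membrane pump Atp2b4 (0.50), the Golgi calcium pump Atp2c2 (-0.55), the calcium pump of the endoplasmic reticulum Atp2a2 (-0.27), and the calcium channel Orai1 (-0.39), with edgeR adjusted p of 0.161, 0.144, 0.0586, 0.098, and 0.237. Atp2c2 and Atp2a2 were named here after their values were seen, as were Atp2b4 and Orai1. For Atp2c2 and Atp2a2 all 5 mice on 10% RPS lay below all controls, beside 4.88% of all genes whose groups did not overlap. The largest differences, not among these 5, were those of S100g and the calcium-sensing receptor Casr (0.74, edgeR adjusted p 0.265). Among the claudins 1 of 5 did, Cldn14 (0.90, edgeR adjusted p 0.159), and Cldn2 had a difference of -0.12 (edgeR adjusted p 0.753).

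In phosphate and magnesium transport 1 of 9 did. This was Slc34a2, the sodium-phosphate cotransporter of the gut, which had 10.1 to 21.0 CPM in controls and 24.2 to 83.8 CPM with 10% RPS. All 5 mice on 10% RPS lay above all controls, beside 4.88% of all genes whose groups did not overlap. Slc34a2 had a log2 fold change of 1.55 (standard error 0.44, edgeR adjusted p 0.0706). Slc34a2 was also 5th of all genes by its slope on Trpv6 (0.77, standard error 0.16, edgeR adjusted p 0.388). Slc34a1 had a difference of -0.31 (edgeR adjusted p 0.758). The median log2 fold change at 10% RPS was -0.16 over the 7 genes and 0.004 over all genes, -0.06 over calcium transport, 0.08 over the receptor and its partners, and 0.11 over phosphate and magnesium transport.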

How the data were processed

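RNA of cecum from 20 mice, 5 per diet, was sequenced single-end from stranded poly(A) libraries. After quality trimming, the authors used the CLC Genomics Workbench to map reads to GRCm39 and deposited raw counts per gene and mouse. The annotation release and the strand setting are not given in the sources used here, and reads shared by paralogs or overlapping genes may have been divided between them. Mice were grouped by the treatment in the labels and are separate animals, so tests set differences against the spread between mice. The labels give no cage or litter, so sharing of either within a diet could not be taken into account.

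Counts were analyzed with edgeR 4.0.16 in R 4.3.3 (limma 3.58.1, DESeq2 1.42.0, sva 3.50.0) and Python 3.11.15. The filterByExpr function (minimum count 10, minimum total 15) left 15348 of 19887 genes. Diet entered a quasi-likelihood fit with TMM scaling and robust moderation as 4 groups, and dose entered another as a number. Genes passed at p of at most 0.05 after Benjamini-Hochberg adjustment over all genes and at least a 1.5-fold change (no fold limit for the trend). In place of the DESeq2 of the study, edgeR was used as the main test, with DESeq2 as an alternative. log2 CPM had a prior count of 2. CPM per kb used exon lengths of GENCODE M39, in which 19827 identifiers were found. Correlations had 100000 permutations and comparisons of single genes exact permutations over 252 assignments. Intervals and the floor of 3 counts cover counting error and, for intervals, the spread between mice. Intervals used a normal approximation with the standard error, so they are narrower than the edgeR test implies. The fits were tested on simulated counts.

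The 8 genes and the lists were chosen with earlier results of these data known, and the study itself names Cyp24a1 and some listed genes from this experiment. Named genes were the 8 genes, listed genes past the threshold, the 2 with the largest change per list, and the genes most like Cyp24a1. Trpv6 as a second reference and the genes around it were chosen after values were seen. Alternatives were DESeq2, its size factors, other filters, marker or surrogate covariates, a fit of 2 diets, glmTreat, other correlation settings, and each mouse left out in turn.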

Additional observations from a re-analysis of the deposited data

Results flagged for a closer look

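In 12 of 72 sets of 5 mice on 1 diet, over 18 named genes, a mouse lay far from the other mice of its diet. A share of about 1 in 20 applies to independent sets of normally distributed values. These sets were in CPM and shared the same mice, so an excess over that share cannot be read from them. In CPM, Cyp24a1 stood out in 3 of the 4 diets. On the log2 scale, looked at after the data were seen, 0 of its mice did, and the widest gap, 0.544 of the range of the diet, lay below the other mice, at mouse 1 on 10% RPS (log2 CPM -2.86). It was at 80.1 CPM in mouse 3 on 0% RPS against 23.4 CPM in the next, at 36.1 CPM in mouse 3 on 5% RPS against 7.399 CPM, and at 11.3 CPM in mouse 4 on 10% RPS against 2.88 CPM. Cyp27b1, near the floor of counts, was at 0.0348 CPM in mouse 2 on 2% RPS and at 0.23 CPM in mouse 2 on 5% RPS. Vdr was at 420 CPM in mouse 1 on 0% RPS, where the next lowest was at 564 CPM. Rxra was at 259 CPM in mouse 2 on 10% RPS.

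Of the other genes, Abcb1a was at 1201 CPM in mouse 3 on 0% RPS, the mouse with the most Cyp24a1. Gadd45a was at 77.5 CPM in mouse 5 on 2% RPS and at 105 CPM in mouse 2 on 5% RPS. Cd274 was at 7.30 CPM in mouse 4 on 10% RPS, the mouse with the most Cyp24a1 on that diet. Trpv5 was at 2.97 CPM in mouse 3 on 10% RPS, which also had the most Trpv6, S100g, and Kel on that diet.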

How the results depend on the processing

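Over 53 results and 1113 alternatives, 1056 kept their direction and their side of the threshold, or for counts stayed within 1.5 times, and 57 did not. The total includes non-calls that had little room to change. All edgeR settings called 0% of all genes at 2% RPS, as did the smooth muscle covariate and glmTreat at 10% RPS. In the permutation test with Cyp24a1, a gene on its own could not reach an adjusted p below 0.154. The count of listed vitamin D and transport genes past the threshold at 10% RPS, 5 as reported, was 1 with the epithelial markers as a covariate, 0 with the smooth muscle markers, and 0 with glmTreat, which tests against the fold threshold itself, where 0.0782%, 0%, and 0% of all genes passed. It was 1 to 6 with single mice left out, where 14 to 344 of all genes passed. The 3 genes with a slope on Trpv6 became 1 with the smooth muscle markers and 1 with the enteric neuron and glia markers as a covariate, and 0 to 4 with single mice left out. The count of the 7 genes with a dose trend was 0 to 1 with single mice left out, where 0% to 4.37% of all genes passed, and the 1 call, Slc8a1 without mouse 4 on 10% RPS, stood beside 3.64%. With the smooth muscle markers as a covariate the log2 difference of Rxra turned to -0.036 at 10% RPS, -0.021 at 5% RPS, and -0.0049 per percent in the trend. The rho of Rxra with Cyp24a1 turned to 0.13 with diet means subtracted, and that of Atp2b1 to -0.092 without the 2 mice farthest from the median of Cyp24a1. The cause of these shifts was not tested.

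With single mice left out, these values crossed 0. The trend of Vdr ran from -8e-04 to 0.0152 and that of Rxra from -0.0032 to 0.0063 per percent. At 10% RPS Rxra ran from -0.022 to 0.11 and Trpv6 from -0.54 to 0.090, or from -0.39 to 0.073 relative to the epithelial markers. At 2% RPS Trpv6 ran from -0.36 to 0.23 and S100g from -0.52 to 0.025, and at 5% RPS S100g ran from -0.33 to 0.18. The rho of Rxra with Cyp24a1 ran from -0.24 to 0.018.

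A filter of 10 counts in every mouse gave no value for Cyp24a1, which had 2 counts in 2 mice, and the depth gave no test for Cyp27b1. Over the 5 mice per diet, the 95% intervals of Trpv6 and S100g at 10% RPS included 0. No paired analysis was possible because the diets were fed to separate mice and no label ties a mouse of one diet to a mouse of another.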
